A study of Homo sapiens with 7 samples.

Results

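Chromosomes 16, 17, 19 and 22 held 489 of the 5782 sites at which PAX3-FOXO1 was counted in Rh4 cells, which is 8.46% of them. Membership was set by chromosome alone: 163 sites lay on chromosome 16, 157 on chromosome 17, 97 on chromosome 19 and 72 on chromosome 22. The other 18 autosomes held 5103 sites and served as the comparison. Of the 489 sites, 465 had enough reads to be tested for change and 24 did not. Those left out had at most 14 reads in the DMSO library A and at most 20 in the DMSO library B.

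Rh4 is an established rhabdomyosarcoma cell line whose tumour driver is PAX3-FOXO1, a fusion of the DNA-binding domains of PAX3 with the activation domain of FOXO1. In all groups the fusion protein of the cells was tagged with both an FKBP degron and an HA epitope. The treated groups received 500 nM dTAG47, which recruits the degron-tagged protein to an E3 ubiquitin ligase, for 2 h or for 4 h, and the control group received DMSO. Each group had 2 crosslinked libraries, made by CUT&RUN with an anti-HA antibody and a tethered nuclease that frees the DNA under the bound protein. The labels do not say whether the line is 1 clone, or whether libraries came from separate cultures, so the p-values reflect the spread among the sequenced libraries alone, and that spread may be technical.

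PAX3-FOXO1 is known to bind mostly at enhancers away from promoters, where it works with myogenic factors to keep muscle-lineage genes active without terminal differentiation. Chromosomes rich in genes also tend to be rich in G and C, in CpG islands and in early-replicating open chromatin, whereas their pericentromeric blocks are made of repeats. A count of sites per chromosome can therefore be set against the number of genes, and the signal per site against that on chromosomes with fewer genes.

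Each site spanned 400 bases and its value was a raw read count. Total counts in all sites were 228300 and 110440 at 2 h, 151360 and 156845 at 4 h and 226067 and 380057 with DMSO. Each group has a column A and a column B, and A stands before B wherever a group has a pair of values. The 4 h columns differed by no more than sampling noise (a chi-square of 1.01 per degree of freedom over tested sites, against 1.96 for the 2 h pair and 2.09 for the DMSO pair) and were counted as 1 sample. At these depths the median tested site on the 4 chromosomes held between 11 and 44 reads per library, so a single site gives a coarse estimate.

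The label of these chromosomes as gene-dense was checked against the RefSeq annotation of GRCh38.p14, used only for numbers of genes. The 4 chromosomes together had 3925 protein-coding genes, or 13.9 per Mb, against 15197 genes and 5.88 per Mb on the other autosomes. The lengths used were close to those of whole chromosomes, including any arm without such genes. Chromosomes 19 and 17 were the densest of the 22 autosomes, with 24.8 and 14.1 genes per Mb. Chromosome 16 had 9.48 and chromosome 22 had 8.88 genes per Mb, both slightly below chromosome 11 with 9.68. The length used for chromosome 22 was well above the 30.7 Mb between its first and last site. Its place against chromosome 11 therefore depends on the length chosen. The label thus held for the group, while by these lengths its members on chromosomes 16 and 22 lay close to chromosome 11.

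Relative to the number of genes, sites of PAX3-FOXO1 were fewer on these chromosomes. There were 12.5 sites per 100 protein-coding genes on the 4 chromosomes, against 33.6 on the other autosomes. Chromosome 19 had 6.69 sites per 100 genes, the lowest of the 22 autosomes, followed upwards by chromosome 17 with 13.4 and chromosome 22 with 16. Chromosome 16 had 19.1, and the other autosomes ran from 18.1 to 63.6. Per Mb between the first and last site the difference was small, with 1.91 sites on the 4 chromosomes and 2.04 on the other autosomes. Chromosome 22 had 2.35 sites per Mb, chromosome 17 had 1.96, chromosome 16 had 1.84 and chromosome 19 had 1.72, all inside the range of 1.56 to 3.13 on the other autosomes. No test was made of these numbers, since a site list has no replicates.

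Signal per site with DMSO was lower on chromosomes 17, 19 and 22 than on most autosomes, and not on chromosome 16. The median site on the 4 chromosomes had 26 reads in the DMSO library A and 42 in the DMSO library B, against 28 and 49 on the other autosomes. In the DMSO library B the medians of chromosomes 19, 17 and 22 were 37, 39 and 42.5 reads, below all 18 other autosomes, which ran from 44 to 63. In the DMSO library A they were 25, 24 and 26 reads, at the low end of a range of 25 to 36.5. Chromosome 16 had 27 and 48 reads in the 2 libraries, in the middle of both ranges. Quartiles overlapped widely: in the DMSO library B they were 26 and 69 reads on the 4 chromosomes, against 32 and 81 on the other autosomes.

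**Figure D1:**
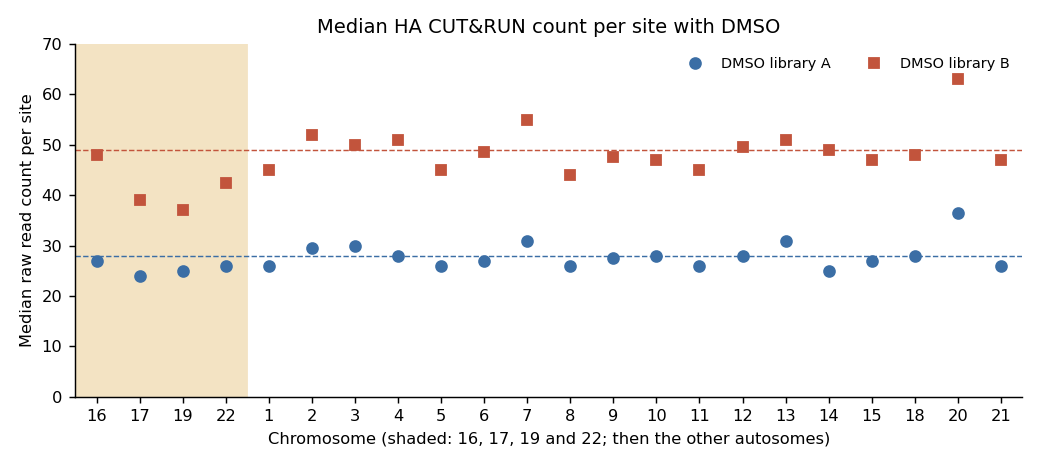
Median raw read count per site (vertical axis) with DMSO on each autosome (horizontal axis; shaded: chromosomes 16, 17, 19 and 22), with circles for the DMSO library A, squares for the DMSO library B and dashed lines at the medians of the other autosomes, 28 and 49 reads. Chromosomes 17, 19 and 22 have the lowest squares of all autosomes, while chromosome 16 lies near the dashed lines.

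The lower median was present in every library. It was 24 and 10 reads at 2 h, 15 and 16 at 4 h and 26 and 42 with DMSO on the 4 chromosomes. On the other autosomes it was 27 and 12 at 2 h, 17 and 18 at 4 h and 28 and 49 with DMSO. The ratio of the medians lay between 0.833 and 0.929 in the 6 columns. Weak sites were more frequent: with all tested autosomal sites split into 3 equal classes by mean DMSO count, 41.5% of the tested sites on the 4 chromosomes fell in the lowest class and 27.7% in the highest, against 32.6% and 33.9% on the other autosomes. Of the 500 strongest sites of the whole table by mean DMSO count, 37 lay on the 4 chromosomes, which is 7.57% of their sites, against 454 or 8.9% of the sites on the other autosomes.

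The ratio between the DMSO libraries at the median site was lower on these chromosomes than elsewhere. The median ratio of the DMSO library B to the DMSO library A at a site was 1.59 on chromosome 16, 1.63 on chromosome 17, 1.57 on chromosome 19 and 1.51 on chromosome 22. On the other 18 autosomes it ran from 1.67 to 1.76, so all 4 chromosomes lay below that range. On chromosome 16 this came from the sites within 1 Mb of its largest site-free stretch, described below, with a median ratio of 0.863. Away from such stretches the ratio was 1.67 on chromosome 16, 1.64 on chromosome 17, 1.58 on chromosome 19 and 1.53 on chromosome 22. It was 1.73 over the other autosomes. Over the summed counts of all sites the ratio was 1.68, and ratios of summed counts did not set the 4 chromosomes apart, with 1.53 to 1.65 on them and 1.53 to 1.8 on the other autosomes. The lower ratio held within each class of DMSO count, with 1.38, 1.69 and 1.82 on the 4 chromosomes from the lowest to the highest class, against 1.47, 1.76 and 1.88 on the other autosomes, although chromosome 22 alone had 1.98 in the highest class. Because both DMSO libraries enter every comparison with dTAG47, this difference moves with the results below, and its part in them was not tested.

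Spacing separated chromosome 16 from chromosome 19. The median distance from a site to its nearest neighbour was 40 kb on chromosome 16, the shortest of the 22 autosomes, and 116 kb on chromosome 19, the longest. It was 80.1 kb on chromosome 17 and 59.9 kb on chromosome 22, and the other autosomes ran from 41.1 to 98.3 kb. Over the 4 chromosomes together the median was 70 kb, against 68.1 kb on the other autosomes. On chromosome 16, 42 sites (25.8%) had a neighbour within 10 kb, against 13.9% on the other autosomes, where the highest single chromosome had 17.1%. Runs of 7, 5 and 7 of these sites lay within 1 Mb of the largest site-free stretch of chromosome 16, described below. The high share thus came in large part from that one place. On chromosome 19, 54 sites (55.7%) had no neighbour within 100 kb, against 41.9% on the other autosomes.

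**Figure D2:**
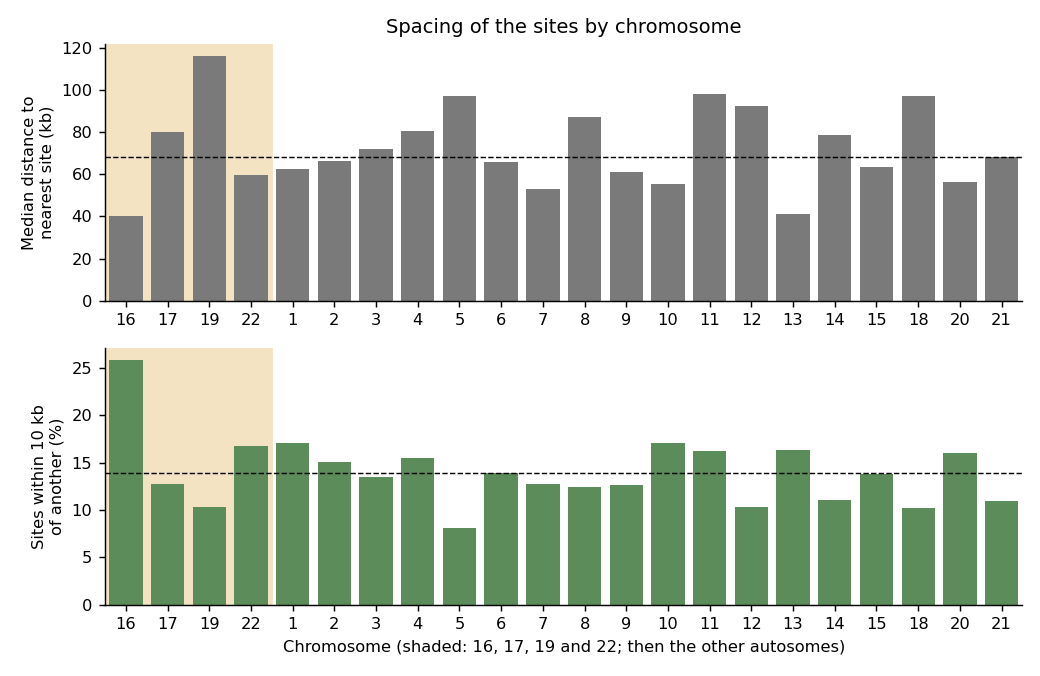
Median distance to the nearest site in kb (upper panel) and the percentage of sites with a neighbour within 10 kb (lower panel) on each autosome, with chromosomes 16, 17, 19 and 22 shaded and dashed lines at the value over the other autosomes (68.1 kb and 13.9%). Chromosome 19 has the tallest bar in the upper panel and chromosome 16 the shortest there and the tallest in the lower one.

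Runs of 3 or more sites, each within 10 kb of the next, were most frequent on chromosome 16. The 4 chromosomes held 32 runs of any length, of which 7 had 3 or more sites: 5 on chromosome 16, 1 on chromosome 17 and 1 on chromosome 19. The closest neighbours on each chromosome were chr16:33950138-33950538 and chr16:33950876-33951276 at 0.738 kb between starts, chr17:22252017-22252417 and chr17:22253018-22253418 at 1 kb, chr19:24184675-24185075 and chr19:24185752-24186152 at 1.08 kb, and chr22:25121677-25122077 and chr22:25123088-25123488 at 1.41 kb (hg19, as all positions here). The most isolated sites were chr17:854913-855313, 3005 kb from its neighbour, chr16:61058269-61058669 at 1855 kb, chr19:54048515-54048915 at 1802 kb and chr22:19868979-19869379 at 985 kb.

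Some of these runs lay beside long stretches without a site. The largest site-free stretch of chromosome 16 spanned 12.4 Mb, from chr16:34022504-34022904 to chr16:46386150-46386550, and that of chromosome 19 spanned 3.55 Mb, from chr19:24185752-24186152 to chr19:27731964-27732364. As background, these stretches hold the centromeres of both chromosomes in hg19, and reads from repeats near centromeres are hard to place. No annotation of repeats was used here.

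Counts were first summed over whole chromosomes. Raw sums follow library depth, no spike-in was used here, and so a drop in them cannot be told apart from a difference in depth. The summed raw count of the 4 chromosomes was 16625 and 8570 at 2 h, 11679 and 12046 at 4 h and 17017 and 26854 with DMSO. The mean was 12598 ± 5696 at 2 h (SD, n = 2), 11862 at 4 h (n = 1) and 21936 ± 6956 with DMSO (SD, n = 2). Relative to DMSO these means were 57.4% at 2 h and 54.1% at 4 h, against 55.8% and 50.6% on the other autosomes. Neither 4 h column reached the lower DMSO library, whereas the 2 h library A nearly equalled the DMSO library A. Single chromosomes were close together at 4 h, with 52.2% of the DMSO mean on chromosome 16, 56.3% on chromosome 17, 55.8% on chromosome 19 and 51.5% on chromosome 22.

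The share of each library's autosomal counts that fell on the 4 chromosomes removes total depth. It was 7.46% (95% Wilson interval 7.35 to 7.57) and 7.96% (7.8 to 8.12) at 2 h, and 7.9% (7.77 to 8.04) and 7.87% (7.74 to 8.01) at 4 h. It was 7.71% (7.6 to 7.83) and 7.25% (7.16 to 7.33) with DMSO. Intervals cover counting error only, since reads are not known to be independent molecules. The 2 h libraries lay on both sides of the DMSO library A, and the 4 h columns lay above both DMSO libraries, close to the DMSO library A and further from the DMSO library B.

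The mean share was 7.71% ± 0.35 at 2 h (n = 2), 7.89% at 4 h (n = 1) and 7.48% ± 0.33 with DMSO (SD, n = 2). An exact two-sided permutation test over libraries gave p = 0.667 at 2 h; at 4 h the p was 0.333, and the smallest p of 2 columns against 2 is 0.333. With the 4 h columns as 1 sample the exact p was 0.667, which is the smallest that 1 against 2 allows. Over the 10 shares tested, the 4 chromosomes and their sum at both times, the lowest Benjamini-Hochberg adjusted exact permutation p was 0.833. Chromosome 17 had the largest differences among the single chromosomes. Its share was 2.43% and 2.62% at 2 h and 2.64% and 2.55% at 4 h, against 2.4% and 2.31% with DMSO, so that both groups lay above DMSO without overlap. Its 2 highest sites by mean count, chr17:31149552-31149952 and chr17:22020629-22021029, carried these differences: without them, a choice made after seeing the data, the share was 2.11% and 2.2% at 2 h and 2.16% and 2.11% at 4 h, against 2.21% and 2.19% with DMSO. Chromosome 16 had 2.5% and 2.86% at 2 h and 2.65% and 2.72% at 4 h, against 2.75% and 2.54% with DMSO, and the groups overlapped.

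**Figure D3:**
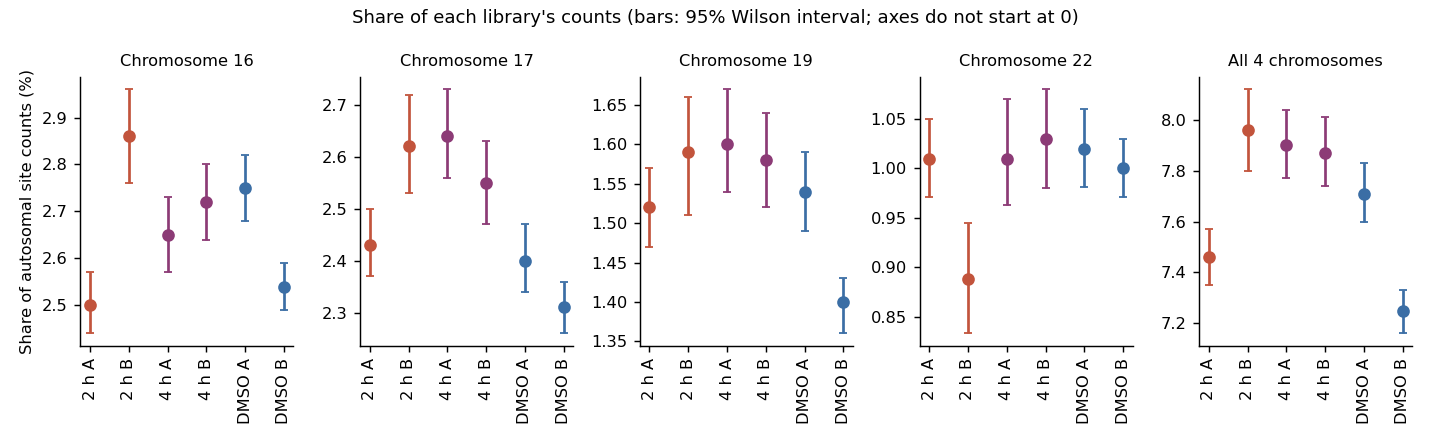
Percentage of each library's autosomal site counts (vertical axes, which do not start at 0) that lay on chromosomes 16, 17, 19 and 22 and on all 4 together, by library, with 95% Wilson intervals as bars. For all 4 chromosomes the 4 h columns (7.9% and 7.87%) lie above both DMSO libraries (7.71% and 7.25%), and the 2 h libraries (7.46% and 7.96%) overlap them.

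Change at single sites was tested relative to the typical site, by TMM scaling in 1 fit of the whole table (edgeR quasi-likelihood, called at a Benjamini-Hochberg adjusted p under 0.05). This scaling removes any loss common to most sites: the median log2 change of all tested sites was 0.01 at 2 h and 0.02 at 4 h on this scale, and −0.93 and −1.08 in unscaled counts. Rises and falls below are therefore relative ones, and a site can rise on this scale while its raw count stays level. The 2 h and 4 h comparisons share the same DMSO libraries. Because 4 h entered as 1 sample, its p-values and standard errors hold no spread among 4 h libraries. They take the spread of the DMSO and 2 h pairs and assume that 4 h varies likewise.

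Median changes on the 4 chromosomes were close to those elsewhere. The median relative log2 change was −0.01 at 2 h (quartiles −0.30 and 0.31) and 0.07 at 4 h (quartiles −0.27 and 0.43) on the 4 chromosomes. On the other autosomes it was 0.01 at 2 h (quartiles −0.31 and 0.29) and 0.02 at 4 h (quartiles −0.35 and 0.33). In unscaled counts the medians were −0.95 and −1.03 on the 4 chromosomes, against −0.93 and −1.08 on the other autosomes. Chromosome 19 had the highest relative median of the 22 autosomes at both times, 0.09 at 2 h and 0.13 at 4 h. The other 18 autosomes ran from −0.10 to 0.07 at 2 h and from −0.09 to 0.09 at 4 h. These are small differences beside the spread within a chromosome, and no test over sites was made because sites of 1 library are not replicates.

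Relative rises were called at a larger share of sites on these chromosomes than over the whole table, and falls at a similar share; neither difference was tested. At 2 h, 16 of the 465 tested sites fell (3.44%, against 3.62% of all tested sites) and 21 rose (4.52%, against 1.92% of all tested sites). At 4 h, 24 fell (5.16%, against 5.45% of all tested sites) and 28 rose (6.02%, against 2.71% of all tested sites). On the other autosomes 3.65% fell and 1.62% rose at 2 h, and 5.53% fell and 2.35% rose at 4 h. Scaling on total counts turned the balance on the 4 chromosomes to 28 falls and 14 rises at 2 h and 35 falls and 16 rises at 4 h, with rises at 1.03% and 1.6% on the other autosomes. Without the DMSO library B the calls shrank to 5 at 2 h and 20 at 4 h, and the rises to 0.645% and 1.29% of the tested sites, against 0.506% and 0.952% on the other autosomes. Nearly all calls rest on edgeR and limma-voom: DESeq2 left 0 falls and 1 rise at 2 h and 0 falls and 2 rises at 4 h on the 4 chromosomes (7 and 14 falls and 21 and 9 rises at an unadjusted p under 0.05), with edgeR at 46 and 51 falls and 53 and 71 rises at that unadjusted p.

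Calls differed in number from chromosome to chromosome, a difference that was not tested. Chromosome 17 had the most calls, with 8 falls and 13 rises at 2 h and 15 falls and 13 rises at 4 h among 148 tested sites. Its 8.78% of rises at both times was the highest share of the 22 autosomes, where the other 18 reached 3.22% at 2 h and 4.92% at 4 h, and its 10.1% of falls at 4 h exceeded their highest value of 7.57%. Chromosome 16 had 6 falls and 6 rises at 2 h and 8 falls and 7 rises at 4 h among 154 tested sites. Chromosome 22 had 2 falls and 0 rises at 2 h and 1 fall and 2 rises at 4 h among 71. At an unadjusted p under 0.05, edgeR gave 7 rises on chromosome 22 at 2 h, and limma-voom and DESeq2 gave 0 adjusted calls and 8 and 0 unadjusted ones.

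Chromosome 19 had no falls. Of its 92 tested sites, 0 fell and 2 rose at 2 h, and 0 fell and 6 rose at 4 h (edgeR, adjusted p under 0.05). At an unadjusted p under 0.05, 4 of its sites fell at each time by edgeR, 3 at 2 h and 2 at 4 h by limma-voom and 0 by DESeq2, and both other tools also gave 0 adjusted falls. Every other autosome had falls at both times, at 1.41% or more of its sites. The lowest relative log2 change on chromosome 19 was −1.27 at 2 h and −1.41 at 4 h, against −2.86 at 4 h over the 4 chromosomes. Its sites held fewer reads than most, with 19.6% of its tested sites in the highest class of DMSO count against 33.9% on the other autosomes, and the part of this in the absence of calls was not tested.

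**Figure D4:**
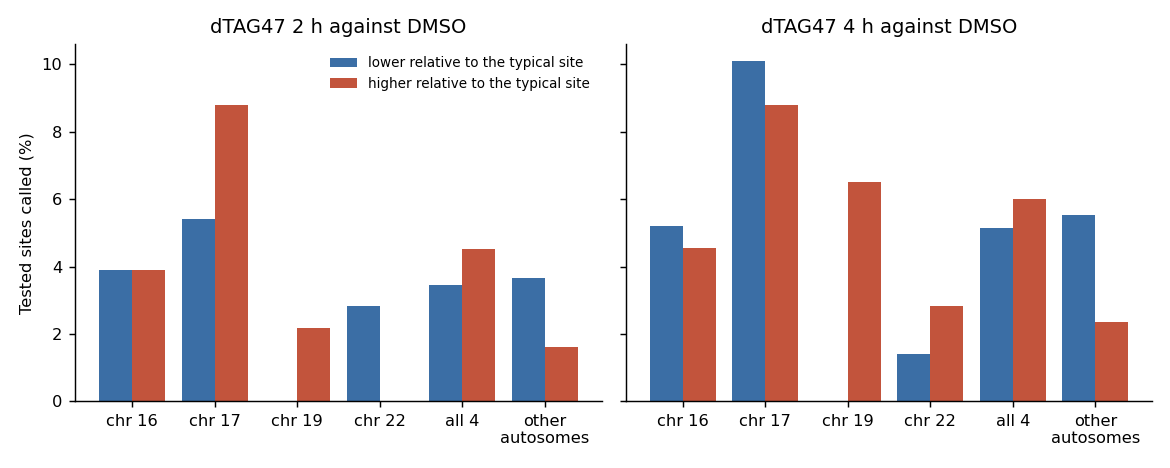
Percentage of tested sites (vertical axis) that were lower (blue) or higher (red) relative to the typical site at 2 h (left) and 4 h (right) against DMSO, by edgeR at an adjusted p under 0.05, on each chromosome, on all 4 and on the other autosomes. Chromosome 17 has the tallest red bars (8.78% at both times) and chromosome 19 has no blue bar.

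Rises gathered where sites lay close together. Among the 75 tested sites on the 4 chromosomes with a neighbour within 10 kb, 10 rose at 2 h (13.3%) and 15 at 4 h (20%), against 4.35% and 5.41% of such sites on the other autosomes. Most of these rises lay in runs beside the site-free stretches described above and below. The run starting at chr17:22252017 held 3 at each time, and that starting at chr16:33950138 held 2 at 2 h and 3 at 4 h. Closeness of sites and nearness to such stretches were therefore not separated here. Among sites with no neighbour within 100 kb, 3.14% rose at 2 h and 2.62% at 4 h, against 1.4% and 2.32% on the other autosomes. Falls on the 4 chromosomes differed less with distance and were few. At 2 h, 4 of the close sites fell (5.33%), 7 of those with a neighbour 10 to 100 kb away (3.52%) and 5 of the isolated ones (2.62%). At 4 h, 5 (6.67%), 11 (5.53%) and 8 (4.19%) fell. Over all tested sites 3.62% fell at 2 h and 5.45% at 4 h. Single chromosomes did not all follow this order. It was 12.5%, 2.94% and 6.25% on chromosome 17 at 2 h, and 5.41%, 4.76% and 5.56% on chromosome 16 at 4 h. On the other autosomes falls at 4 h were 5.26%, 5.4% and 5.76% in the same classes. None of these differences was tested. Close sites also had more reads with DMSO, with medians of 35 and 50, against 23 and 35 at isolated sites.

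In summed counts, sites beside the largest site-free stretch stayed closer to their DMSO level than other sites did on chromosomes 16, 17 and 19. The same held on the other autosomes, by less, and not on chromosome 22. Stretches were chosen by length alone. Which of them hold a centromere was not determined, beyond the background given above for chromosomes 16 and 19. Within 1 Mb of the stretch on chromosome 16 there were 23 sites, whose summed counts were 1316 and 1163 at 2 h, 1269 and 1267 at 4 h and 1413 and 1288 with DMSO. The mean at 4 h was 93.9% of the DMSO mean there, against 43.3% over the 140 other sites of the chromosome. On chromosome 19 the 7 sites beside the stretch summed to 503 and 433 at 2 h, 460 and 463 at 4 h and 516 and 501 with DMSO. That is 90.8% of the DMSO mean at 4 h, against 51.1% over its other 90 sites. The 5 sites beside the stretch on chromosome 17 kept 89.5% at 2 h and 84.3% at 4 h, whereas the 4 on chromosome 22 kept 50.3% and 48.2%. On the other autosomes the sites beside these stretches kept 79.4% and 78.7%, against 54.9% and 49.6% elsewhere. Their median unscaled log2 changes were −0.81 at 2 h and −0.99 at 4 h, against −0.93 and −1.08 elsewhere, so the median site there differed little. Over the 4 chromosomes these medians were −0.19 and −0.17 beside the stretches, against −0.98 and −1.05 elsewhere. The DMSO library B held 0.912 times the reads of the DMSO library A beside the stretch on chromosome 16 and 1.74 times elsewhere on that chromosome, so the DMSO libraries also differed there in their own way, and the part of this in the counts was not tested.

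The same distance was then applied to the largest site-free stretch of every autosome, a choice made after seeing the data. Because these stretches were picked by length and not by position, the sites beside them may differ in kind between the 4 chromosomes and the other autosomes. The shares below therefore do not compare sites near centromeres. On the 4 chromosomes 33 tested sites lay within it, of which 7 rose at 2 h (21.2%) and 11 at 4 h (33.3%), against 3.09% and 5.15% of the 97 such sites on the other autosomes. Of the other 432 tested sites, 3.24% rose at 2 h and 3.94% at 4 h, against 1.59% and 2.29% on the other autosomes. Chromosome 17 held 11 of the 14 rises left at 2 h and 10 of the 17 at 4 h, among 144 such sites. On chromosome 16, 2 of 135 rose at each time. Several rises left on chromosome 17 lay beside another site-free stretch, between chr17:22261259-22261659 and chr17:25264798-25265198, the third largest of that chromosome, where 5 of 6 tested sites within 1 Mb rose at each time. With the sites beside the 2 largest stretches of each autosome left out, 3.33% rose at 2 h and 4.04% at 4 h on the 4 chromosomes, against 1.42% and 2.04% on the other autosomes. With those beside the 3 largest left out, 2.23% and 2.98% rose, against 1.35% and 1.94%.

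The sums above include the longer runs of chromosomes 16 and 19, whose counts were as follows. The 7 sites between chr16:33950138 and chr16:33974363 summed to 611 and 520 reads at 2 h, 578 and 612 at 4 h and 640 and 586 with DMSO. The 5 sites between chr16:46386150 and chr16:46403899 summed to 342 and 334 at 2 h, 353 and 355 at 4 h and 404 and 350 with DMSO. A run away from these stretches had lower counts after dTAG47: 3 sites between chr16:3989282 and chr16:4001120 summed to 144 and 69 at 2 h, 129 and 116 at 4 h and 159 and 271 with DMSO, a 4 h mean 0.57 times that with DMSO. The run of 4 sites on chromosome 19 between chr19:27731964 and chr19:27738691 had 385 and 371 reads at 2 h, 375 and 353 at 4 h and 401 and 381 with DMSO.

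The largest relative falls lay on chromosomes 16 and 17 and left few reads. Of the 32 calls at named falls and rises, 29 were lost with DESeq2 and 16 without the DMSO library B. The site chr17:27378220-27378620 had 16 and 2 reads at 2 h, 2 and 6 at 4 h and 35 and 93 with DMSO. All 4 treated values lay below both DMSO values. Its relative log2 change was −1.87 at 2 h (SE 0.34, edgeR adjusted p = 0.00047) and −2.86 at 4 h (SE 0.43, edgeR adjusted p = 2.03e-05).

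The site chr16:20731237-20731637 had 11 and 8 reads at 2 h, 3 and 3 at 4 h and 26 and 63 with DMSO, with a relative log2 change at 4 h of −2.75 (SE 0.48, edgeR adjusted p = 0.000158). The site chr16:1480699-1481099 had 13 and 8 reads at 2 h, 7 and 7 at 4 h and 47 and 61 with DMSO. These sites fell at both times with no overlap between treated and DMSO libraries. The site chr17:63316944-63317344 had 13 and 4 reads at 2 h, 3 and 4 at 4 h and 24 and 45 with DMSO, and was called at 4 h (edgeR adjusted p = 0.00343) and not at 2 h (adjusted p = 0.0909).

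A pair of neighbouring sites near the end of chromosome 16 moved alike, and a pair on chromosome 17 did not. The site chr16:86802065-86802465 had 15 and 9 reads at 2 h, 5 and 9 at 4 h and 40 and 60 with DMSO. Its neighbour chr16:86806090-86806490, 4.03 kb away, had 32 and 13 reads at 2 h, 14 and 12 at 4 h and 64 and 114 with DMSO. Both fell at both times, with relative log2 changes at 4 h of −1.73 and −1.66 (SE 0.36 and 0.29). The other 2 of the 8 largest falls at 4 h, chr17:11467934-11468334 and chr17:66573720-66574120, had relative log2 changes of −1.65 and −1.80. Among the 8 largest falls at 2 h were also chr16:26902366-26902766 (relative log2 change −1.63), chr17:59402678-59403078 (−1.25) and the 2 sites that fell on chromosome 22, chr22:27843124-27843524 (−1.27) and chr22:28502537-28502937 (−1.15). The last of these had a relative log2 change of −0.41 at 4 h and was not called there (edgeR adjusted p = 0.469).

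The largest relative rises included sites with more raw reads after dTAG47. The site chr17:51183505-51183905 had 60 and 29 reads at 2 h, 82 and 54 at 4 h and 16 and 42 with DMSO. Its 4 h counts lay above both DMSO counts and its 2 h counts did not separate from them. The relative log2 change was 1.58 at 2 h (SE 0.26, edgeR adjusted p = 0.000119) and 2.34 at 4 h (SE 0.26, edgeR adjusted p = 1.29e-07), the largest on the 4 chromosomes, and 1.23 in unscaled counts at 4 h.

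The site chr17:19506190-19506590 had 40 and 18 reads at 2 h, 30 and 26 at 4 h and 15 and 17 with DMSO, so that all treated counts exceeded both DMSO counts. The site chr17:22020629-22021029 had 384 and 174 reads at 2 h, 404 and 330 at 4 h and 140 and 204 with DMSO, with a relative log2 change at 4 h of 2.17 (SE 0.35, edgeR adjusted p = 6.14e-05). The weak site chr17:22252017-22252417 had 18 and 10 reads at 2 h, 14 and 13 at 4 h and 7 in each DMSO library.

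Other named rises differed less in raw counts. The site chr16:33950876-33951276 had 88 and 79 reads at 2 h, 98 and 89 at 4 h and 67 and 64 with DMSO (relative log2 change at 4 h 1.56, unscaled 0.52). The site chr17:45266393-45266793 had 102 and 70 reads at 2 h, 83 and 67 at 4 h and 61 and 74 with DMSO, and chr17:25264798-25265198 had 31 and 24 at 2 h, 21 and 31 at 4 h and 20 and 22 with DMSO. On chromosome 19, chr19:27738291-27738691 had 26 and 21 reads at 2 h, 29 and 26 at 4 h and 17 and 33 with DMSO and was called at 4 h (edgeR adjusted p = 0.00637). On chromosome 16, chr16:46424694-46425094 had 78 and 61 reads at 2 h, 52 and 40 at 4 h and 45 and 56 with DMSO, and its relative rise was larger at 2 h (log2 1.45) than at 4 h (0.94), a difference that was not tested.

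Over the whole group, counts above both DMSO libraries were rare. In raw counts both 2 h libraries lay above both DMSO libraries at 6 of 465 tested sites (1.29%, against 0.413% of all tested sites), and both 4 h columns did so at 8 (1.72%, against 0.807% of all tested sites). Both 2 h libraries lay below both DMSO libraries at 253 sites (54.4%, against 50.2% of all tested sites) and both 4 h columns at 353 (75.9%, against 80.3% of all tested sites). The DMSO B to A ratio again differed between classes: it was 1.28 over the 28 pooled rises at 4 h and 1.79 over the 24 pooled falls, against 1.46 and 1.87 for rises and falls on the other autosomes. The DMSO counts also enter the calls, so these ratios are no independent measure.

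**Figure D5:**
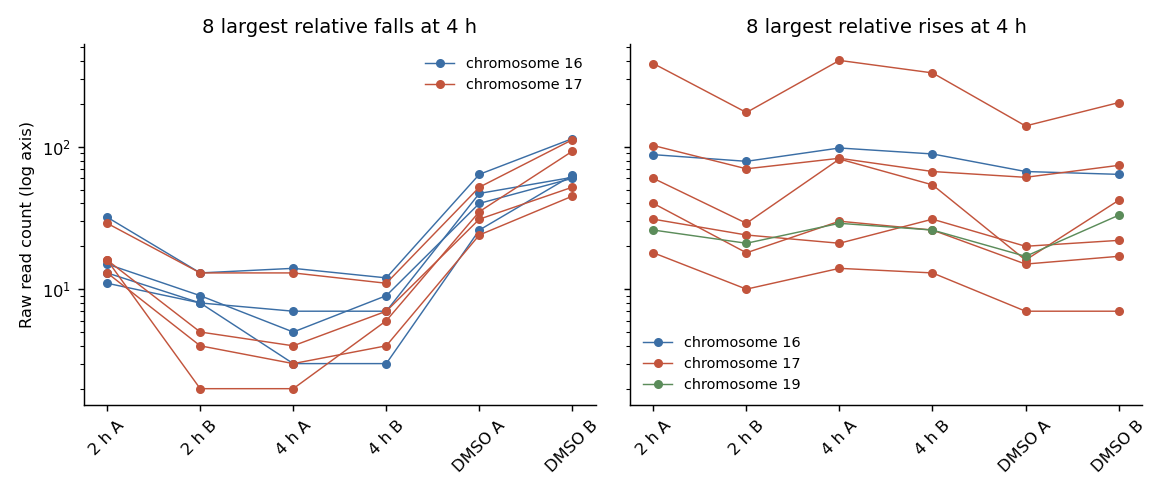
Raw read counts (vertical log axis) in the 6 libraries (horizontal axis) at the 8 sites with the largest relative falls (left) and the 8 with the largest relative rises (right) at 4 h on chromosomes 16, 17, 19 and 22, 1 line per site coloured by chromosome. All falls lie on chromosomes 16 and 17 and drop to 14 reads or fewer at 4 h, while the rises run from level lines to the site with 404 reads in the 4 h column A and 140 in the DMSO library A.

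The strongest sites with DMSO divided into those that lost reads and those that did not. On chromosome 19, chr19:27731964-27732364 had 290 and 282 reads at 2 h, 282 and 276 at 4 h and 318 and 287 with DMSO, the highest mean DMSO count of the 4 chromosomes. The next, chr19:31153338-31153738, had 119 and 53 reads at 2 h, 70 and 76 at 4 h and 125 and 227 with DMSO, and chr19:43355275-43355675 had 134 and 47, 74 and 85, and 122 and 216 in the same order of groups. The first was level in all 6 columns and the other sites lost reads at 4 h relative to both DMSO libraries. Their relative log2 changes at 4 h were 0.88, −0.16 and 0.02, and none was called.

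On chromosome 17, chr17:31149552-31149952 had 359 and 293 reads at 2 h, 328 and 344 at 4 h and 305 and 265 with DMSO. It was the only site of the 4 chromosomes among the 20 highest of the table by mean count over the 6 columns, and rose relative to the typical site at 2 h (log2 1.18, SE 0.36, edgeR adjusted p = 0.043) and was not called at 4 h (edgeR adjusted p = 0.059). The site chr17:79272905-79273305 had 108 and 57 reads at 2 h, 59 and 64 at 4 h and 123 and 232 with DMSO. Its relative log2 change at 4 h was −0.41 (not called), below the lower quartile of −0.27 on the 4 chromosomes.

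On chromosome 16, chr16:33963025-33963425 had 197 and 160 reads at 2 h, 183 and 193 at 4 h and 201 and 200 with DMSO. The site chr16:46427405-46427805 had 166 and 151 at 2 h, 192 and 165 at 4 h and 192 and 159 with DMSO. Neither changed much in raw counts and neither was called. The site chr16:89609273-89609673, in contrast, had 87 and 38 reads at 2 h, 44 and 42 at 4 h and 99 and 232 with DMSO, with a relative log2 change at 4 h of −0.80 (SE 0.27, edgeR adjusted p = 0.0623).

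Chromosome 22 had weaker leading sites, and its 3 strongest lost reads or were mixed. The site chr22:36740025-36740425 had 134 and 64 reads at 2 h, 72 and 82 at 4 h and 100 and 171 with DMSO. The site chr22:28186463-28186863 had 67 and 35 at 2 h, 46 and 68 at 4 h and 74 and 155 with DMSO. The site chr22:27283487-27283887 had 124 and 40 at 2 h, 99 and 99 at 4 h and 79 and 157 with DMSO, and rose relative to the typical site at 4 h (log2 0.87, SE 0.26, edgeR adjusted p = 0.0314). At this last site the 4 h counts lay between the DMSO counts, so the rise is in share and not in raw reads.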

How the data were processed

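HA CUT&RUN was counted in 6 crosslinked libraries of the Rh4 line; the sample lacking crosslinking is not used here. The deposited table gives raw counts of reads per site, not normalized by the authors. The build was hg19, and Genrich 0.6.1, DiffBind, DESeq2, deepTools, Bowtie2 and Trimmomatic 0.32 were used, per the submitters' processing notes. Settings, site choice and duplicate handling are not stated there. Columns were matched to groups by treatment and time. Both DMSO columns were assigned to the crosslinked group, since no other DMSO group has 2 samples. No label links the column letters to replicate numbers. There were 0 further columns of values. Positions are as deposited and, as their start base is unknown, can deviate by 1 base. Sites carry no gene names, no genome of the deposited build was used, and site sequences are not shown.

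The filterByExpr function of edgeR 4.0.16 was applied to the 6 columns (minimum count 10, minimum total 15), and left 5575 of 5782. The 4 h columns were summed as 1 library, and all groups entered 1 edgeR quasi-likelihood fit (R 4.3.3) with TMM scaling, a single treatment term and 2 residual degrees of freedom. The Benjamini-Hochberg threshold was 0.05 and the biological coefficient of variation 12.7%. A standard error is the log2 change over the square root of F. Unscaled log2 changes came from a fit with equal library sizes and the 4 h columns averaged. The fit was tested on simulated data. Shares were tested with scipy 1.17.1 in Python 3.11.15. Depth was 110440 to 380057 counts per library.

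Named sites were, per chromosome, the 3 with the highest mean DMSO count, the closest neighbours and the most isolated site, and, over the 4 chromosomes, the 8 largest called falls and rises at each time whose treated columns lay on 1 side of both DMSO libraries after division by library totals. Chromosomes, measures and tests were chosen with earlier results of these data known. Alternatives were separate 4 h columns, no scaling, total counts, DESeq2 1.42.0, limma-voom (limma 3.58.1), no filter, only the compared groups, a replicate block, leaving out each column, and leaving out the 20 highest sites.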

Additional observations from a re-analysis of the deposited data

How the results depend on the processing

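Called sites on chromosomes 16, 17, 19 and 22 numbered 37 at 2 h and 52 at 4 h. They became 0 and 0 with no scaling (45 and 20 falls and 0 and 0 rises at an unadjusted p under 0.05) and 1 and 2 with DESeq2. With a replicate block on the column letters they were 21 and 49. The block was fitted with separate 4 h columns, which without the block gave 41 and 70. With only the compared groups and separate 4 h columns, 84 were called at 4 h. Leaving out 1 column gave 5 to 53 calls at 2 h and 20 to 64 at 4 h; without the 2 h library A there were 16 at 2 h, without the 2 h library B 7, and without 4 h column A or B 29 or 26 at 4 h. The causes were not tested. Separate 4 h columns, total counts, limma-voom, no filter and leaving out sites beside the largest, the 2 largest or the 3 largest gaps (chosen after seeing the data) kept both counts within 1.5 times, with 70 calls at 4 h for separate columns. Of the 32 calls at named falls and rises, 32 were lost with no scaling, 29 with DESeq2, 16 without the DMSO library B, 9 without each of the 2 h libraries in turn and 3 with the block; no direction reversed, which is no support, since the sites were chosen for large changes in these counts.

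Apart from the block fit, the A-to-B difference per site was correlated between groups. The correlations were −0.198 for 2 h and DMSO, 0.0116 for 4 h and DMSO and −0.00911 for 4 h and 2 h. They showed no positive pairing by letter. Where a column left out leaves 1 library in a group, that library is assumed to vary like the others.

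The median relative log2 change of the 4 chromosomes minus that of the other autosomes was −0.015 at 2 h and 0.057 at 4 h, and leaving out 1 column gave −0.045 to 0.041 and 0.024 to 0.071. The share of counts on the 4 chromosomes differed by 0.23 percentage points at 2 h and 0.406 at 4 h, with −0.0173 to 0.477 and 0.172 to 0.64 leaving out 1 column. Without the 20 highest sites of the table it was 7.94% and 8.93% at 2 h, 8.65% and 8.6% at 4 h and 8.24% and 7.53% with DMSO. Both differences were then larger. By the median of log2 counts per site (pseudocount 1) the differences were −0.0419 and −0.00485 on the log2 scale. On chromosome 16 they were 0.0366 and 0.0374 points, with −0.143 to 0.216 and −0.069 to 0.144 leaving out 1 column, and −0.134 and −0.0841 by the median. On chromosome 17, leaving out its 2 highest sites turned the differences of 0.17 and 0.238 points to −0.0448 and −0.0594. On chromosome 22 at 4 h the difference was 0.00934 points, with −0.000459 to 0.0191. The median DMSO count was 0.909 times that of the other autosomes, 0.857 in the DMSO library B alone.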
